A study of Delphinapterus leucas with 24 samples.

Results

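Complement genes were followed in whole blood of beluga whales (Delphinapterus leucas), an Arctic toothed whale, by RNA sequencing of 24 libraries. The members were the rows of the table whose Entrez Gene ID is that of C3, CFP, CFD, CR1, CD46, CD55, CD59, C5AR1, C3AR1 or SERPING1, 10 complement genes. Of the 10, 9 were listed, on 11 of 45872 assembled features and among 9855 distinct IDs in all. No row of the table used here carries the ID of C3, and C3 was not analysed here. The libraries were 8 from 2012 (3 females and 5 males), 8 from 2013 (4 females and 4 males) and 8 from 2014 (2 females and 6 males), and the design compares the sexes and the years. No treatment was given to any group, and the sources used here do not give the animals' age. The 2012 animals were sampled between 1 and 12 September, those of 2013 between 23 and 30 August, and those of 2014 between 25 August and 3 September, so the year and the calendar days of sampling cannot be fully told apart. The sources used here do not say whether an animal was sampled in more than 1 year, and p-values refer to the spread among these libraries.

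Complement is a cascade of plasma proteases and of receptors and regulators on cells that marks microbes and damaged cells for removal. All of its routes meet at the cleavage of C3, and the alternative route keeps itself going through factor D (CFD), the protease that cleaves factor B, and properdin (CFP), which steadies the C3 convertase. The small fragments C3a and C5a act on blood leukocytes through C3AR1 and C5AR1, and host cells are shielded by CR1, CD46, CD55 and CD59 on the membrane and by the C1 inhibitor SERPING1 in plasma. These roles are known mainly from human and mouse studies.

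Values are TPM (transcripts per 1000000), a measure per transcript length, so levels may be compared between genes. TPM keeps no depth, and the depth of the libraries is unknown. The IDs of alpha and beta globin took between 2.72% and 54.4% of a library's TPM, with a median of 13.4% in 2012, 28.3% in 2013 and 31.5% in 2014. TPM sums to a fixed total, so more globin leaves less of it for all other features together, and each comparison is given on the listed (deposited) TPM and on TPM scaled by the median ratio to the other libraries (size factors of 0.534 to 1.45). Male 2012 replicate 1 stood apart from its year, with 54.3% globin where the other 2012 libraries held 2.72% to 16.8%. Marker IDs of T cells (6 of 6 listed), B cells (5 of 5), natural killer cells (4 of 4), neutrophils (5 of 9), monocytes (4 of 6), platelets (4 of 6) and other erythroid genes (5 of 5) were present, as in blood, and 1 erythroid ID was at 0 in at least 1 library. Of 4 hepatocyte IDs, 1 was listed, at a mean of 14.6 TPM. In whole blood, fewer cells of a type and less RNA per cell cannot be told apart.

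The members spanned nearly the whole range of listed levels, from factor D, among the most abundant IDs, to the C3a receptor, among the least. The fluid-phase activator CFD averaged 1404 ± 417 TPM (SD, n = 24), rank 22 of 9855 IDs. Properdin, CFP, was lower at 131 ± 35.7 TPM, rank 500, and the CFD to CFP ratio ran from 6.25 to 16.6 with a median of 10.8. SERPING1, the inhibitor of C1r, C1s and the lectin pathway proteases, averaged 102 ± 29.3 TPM, rank 720. None of the 9 listed members was at 0 in any library.

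The receptors for the anaphylatoxins lay far apart. C5AR1, the C5a receptor that draws neutrophils to sites of activation, averaged 308 ± 106 TPM, rank 192, and C3AR1, the C3a receptor, 3.81 ± 1.47 TPM, rank 8827. C5AR1 was 35.6 to 263 times as high as C3AR1 in the same library, with a median of 83.2.

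The membrane regulators also fell into a high and a low pair. CD55, which speeds the decay of the convertases, averaged 181 ± 57.5 TPM (rank 324), and CD46, the cofactor for the cleavage of C3b by factor I, averaged 166 ± 44.5 TPM (rank 371). CD59, which blocks the assembly of the membrane attack complex, averaged 9.58 ± 5.13 TPM (rank 6827), and CR1, the receptor for C3b and C4b, averaged 4.79 ± 3.08 TPM (rank 8448). CD46 exceeded CD59 by 5.80 to 92.9 times within a library (median 18.6), and CD55 exceeded it by 4.85 to 104 times (median 18.4).

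Some neighbours in the order kept their places and others did not. CFD lay above C5AR1, C5AR1 above CD55, and SERPING1 above CD59 in 24 of 24 libraries. CFP lay above SERPING1 in 21, CD46 above CFP in 20 and CD59 above CR1 in 20 of the 24. CD55 lay above CD46 in 17 of 24 libraries, and CR1 above C3AR1 in 13, the least steady orders of these neighbours. The order of neighbours was not tested.

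**Figure D1:**
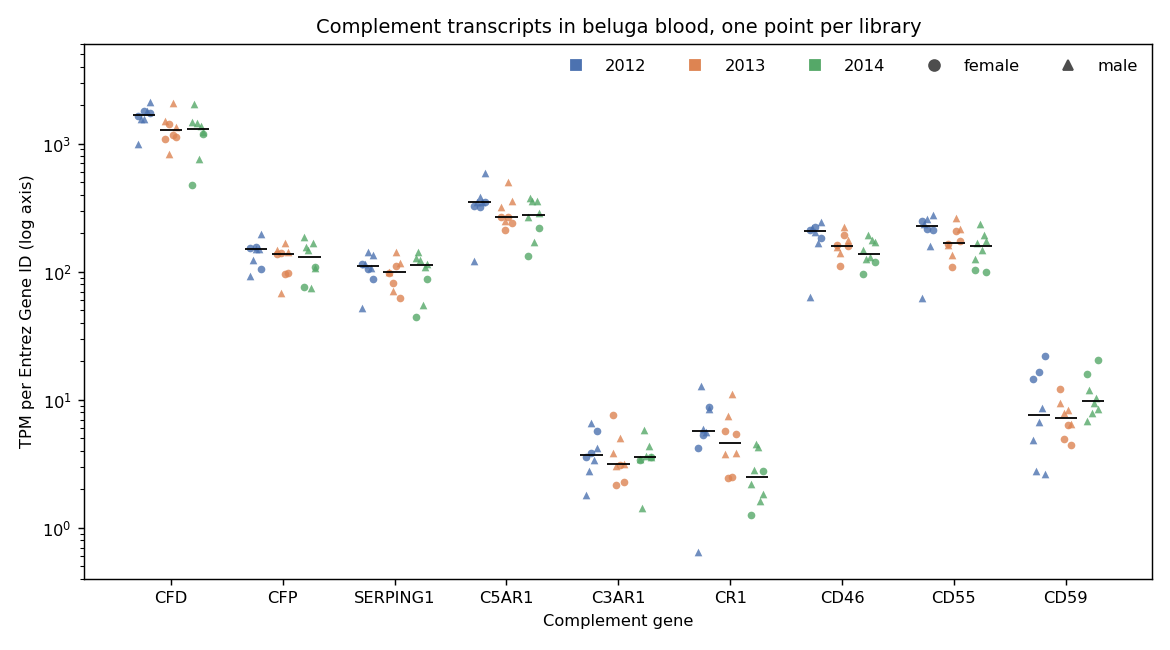
TPM of the 9 listed complement members on a log axis, with each library as a point coloured by year, circles for females, triangles for males and a line at each year's median. CFD lies highest, a middle band holds C5AR1, CD55, CD46, CFP and SERPING1, and CD59, CR1 and C3AR1 lie lowest.

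CD55 and CFD were each listed on 2 assembled features. For CD55 these were TR38997|c4_g1, at 113 TPM or 62.6% of the sum, and TR22340|c0_g1, at 67.6 TPM or 37.4%. On the scaled values these features of CD55 moved together across the libraries (Pearson r = 0.756, adjusted permutation p = 4.0e-05; Spearman rho = 0.722, adjusted permutation p = 2.6e-04; n = 24), and r was 0.684 without the 2 libraries farthest from the median. Within the years 2012, 2013 and 2014 it was 0.965, 0.701 and 0.840. If both are pieces of 1 transcript, their sum exceeds that transcript's own level, and the place of CD55 beside CD46 would change. CFD was carried almost wholly by TR25059|c0_g1, at 1397 TPM or 99.5%, with TR39893|c0_g1 at 7.07 TPM. Each of the other 7 listed members had 1 feature. Entrez Gene ID 5199's feature (CFP) was TR2573|c0_g1, ID 1378's (CR1) was TR14301|c0_g2, ID 966's (CD59) was TR36366|c0_g1, and that of SERPING1, ID 710, was TR35327|c0_g1.

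The members also differed in how steady they were after scaling. CD46 was the steadiest, with a coefficient of variation over the 24 libraries of 12.4%, against a median of 17.7% over all IDs, and 19.4% of IDs varied less. CD55 followed at 17.1%, C5AR1 at 19.4%, SERPING1 at 21.6%, CFD at 22.9% and CFP at 23.9%. The 3 members of low level varied most, C3AR1 at 38.4%, CR1 at 56.5% and CD59 at 63.1%. Of all IDs, 98.1% varied less than CD59 and 97.2% less than CR1. The part of their low level in this spread was not tested.

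Between 2012 and 2014, 8 of the 9 members were lower in 2014 on listed TPM and CD59 was higher, but none passed the test. With limma on log2(TPM + 1), sex in the model and Benjamini-Hochberg adjustment over 9854 IDs, 0 of 9 members were called at an adjusted p under 0.05, while 11.3% of all IDs were. That share rested on single libraries: over the 24 fits that each left out 1 library, 18 to 7523 IDs were called, with over 1.5 times fewer than in the full fit in 12 of them and over 1.5 times more in 2. At an unadjusted p under 0.05 there were 3 of 9 members, CR1, CFD and CD59, beside 3996 of 9854 IDs. The members' share was thus not above that of all IDs. The members' median difference was -0.34 on the log2 scale, and that of all IDs was -0.38. After scaling, the members' median was 0.06 and that of all IDs -0.00, with 0 of 9 members and 3.62% of IDs called.

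Among the activators, CFD was listed in 2012 at 1645, 1786 and 1728 TPM in the females and at 990, 1548, 1548, 1797 and 2126 TPM in the males. In 2013 the CFD levels were 1084, 1422, 1178 and 1120 TPM in the females and 1494, 832, 2083 and 1359 TPM in the males. In 2014 they were 472 and 1184 TPM in the females and 1466, 2030, 1448, 762, 1374 and 1227 TPM in the males. The years overlapped, with means of 1646 ± 323, 1321 ± 374 and 1245 ± 472 TPM (SD, n = 8 each). The CFD difference between 2014 and 2012 was -0.52 ± 0.22 (SE; limma adjusted p = 0.0830) on listed TPM and -0.11 ± 0.16 (limma adjusted p = 0.748) after scaling. On listed TPM it was -0.32 (limma adjusted p = 0.314) without female 2014 replicate 1, which held the lowest CFD, and -0.09 with log2 globin share in the model. With scaling and day of the year, an alternative chosen after seeing the data, it was -0.47 and not called. For CFP the difference was -0.20 ± 0.22 (limma adjusted p = 0.436) on listed TPM and 0.21 ± 0.16 after scaling, opposite in sign.

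CR1 had its lowest year mean in 2014. In 2012 it was listed at 0.650, 12.7, 5.90, 5.57 and 8.44 TPM in the males and at 4.21, 5.29 and 8.71 TPM in the females. In 2013 it was listed at 3.76, 7.46, 11.0 and 3.83 TPM in the males and at 5.66, 2.43, 2.49 and 5.37 TPM in the females. In 2014 it was at 2.20, 2.83, 4.52, 4.27, 1.63 and 1.85 TPM in the males and at 1.26 and 2.76 TPM in the females, and no library exceeded 4.52 TPM. The year means of CR1 were 6.44 ± 3.58, 5.25 ± 2.88 and 2.67 ± 1.19 TPM (SD, n = 8 each), and the single lowest value of all came from 2012, in male replicate 1. The difference between 2014 and 2012 was -0.92 ± 0.33 (SE; limma adjusted p = 0.0638), and after scaling it was -0.56 ± 0.29 (limma adjusted p = 0.253). With the day of the year as a model term these were -0.19 (limma adjusted p = 0.999) and -0.23 (limma adjusted p = 0.908), and with log2 globin share the listed difference was -0.47. Between 2014 and 2013 CR1 differed by -0.78 ± 0.34 (limma adjusted p = 0.327), and after scaling by -0.59 ± 0.29 (limma adjusted p = 0.282).

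CD46 and CD55 differed between 2014 and 2012 by -0.34 ± 0.22 and -0.38 ± 0.23 on listed TPM (limma adjusted p = 0.202 and 0.180). After scaling, CD46 differed by 0.06 ± 0.10 and CD55 by 0.03 ± 0.13. For the C5a receptor, C5AR1, the difference was -0.39 ± 0.23 (limma adjusted p = 0.166) on listed TPM and 0.02 ± 0.13 after scaling. C3AR1 differed by -0.09 ± 0.22 and SERPING1 by -0.18 ± 0.22 on listed TPM, and by 0.24 ± 0.20 and 0.22 ± 0.13 after scaling. The sign of 6 members thus turned with the scaling. The median globin share was 13.4% in 2012 and 31.5% in 2014, and its part in the listed differences was not tested beyond the scaling and the model with globin share. After scaling, the monocyte and neutrophil markers had higher medians in 2014 than in 2012, a difference that was not tested. The summed scaled monocyte markers ran from 2166 to 3913 TPM in 2012 (median 3207) and from 3627 to 7477 TPM in 2014 (median 5231), and the neutrophil markers from 4113 to 6708.3 TPM (median 5797) and from 4033 to 11155 TPM (median 7616). On listed TPM the neutrophil median was 7020 TPM in 2012 and 6370 TPM in 2014. For T cells the scaled medians of these years were 832 and 758 TPM, for B cells 206 and 219 TPM, and for natural killer cells 427 and 413 TPM. The part of these markers in the members' differences was not tested.

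On listed TPM CD59 was the member whose difference between 2014 and 2012 ran the other way. Between 2014 and 2012 it was 0.51 ± 0.25 (SE; limma adjusted p = 0.120) on listed TPM and 0.87 ± 0.30 (limma adjusted p = 0.0901) after scaling, where 6 other members also lay above 0. With the day of the year as a model term they were 0.27 (limma adjusted p = 0.999) and 0.13 (limma adjusted p = 0.950). Between 2014 and 2013 it was 0.71 ± 0.25 (limma adjusted p = 0.258) on listed TPM and 0.95 ± 0.30 (limma adjusted p = 0.122) after scaling. With scaling and day of the year, an alternative chosen after seeing the data, CD59 passed there (1.12, limma adjusted p = 0.0335), as did 5.9% of IDs. In 2012, 2013 and 2014 the mean log2(TPM + 1) of CD59 on listed TPM was 4.204, 2.901 and 4.25 in females. In males it was 2.507, 3.165 and 3.326. The rise from 2013 to 2014 was thus larger in the females, of which 2014 held 2. The year means of CD59 were 9.82 ± 7.07, 7.50 ± 2.53 and 11.4 ± 4.60 TPM (SD, n = 8 each), and the years overlapped.

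**Figure D2:**
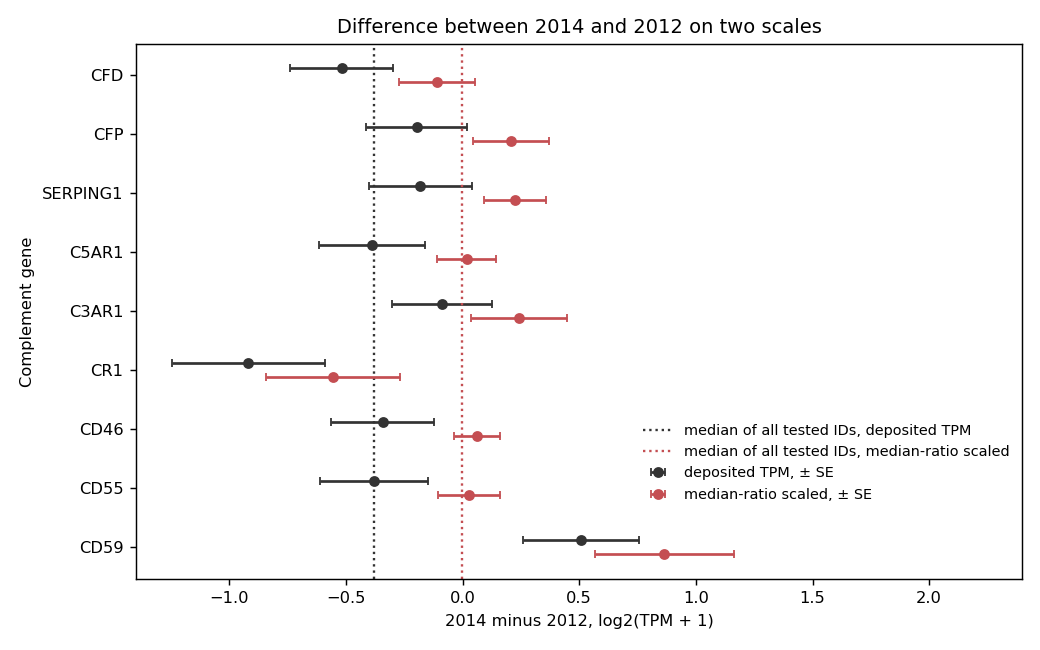
Difference between 2014 and 2012 for each member in log2(TPM + 1) units, with its SE, on listed TPM (black) and after median-ratio scaling (red), beside the median of all IDs (dotted lines). On listed TPM 8 members lie below 0 and CD59 above it, while after scaling CR1 and CFD lie below 0 and the other 7 above it.

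The other comparisons of years held no call among the members. Between 2013 and 2012 the members' differences on listed TPM ran from -0.30 to -0.08 with a smallest limma adjusted p of 0.920, and 0 of 9 members and 0% of IDs were called, on listed and on scaled values. No member reached an unadjusted p under 0.05 there, and 99 of 9854 IDs did on listed TPM. Between 2014 and 2013, 0 of 9 members were called, against 0% of IDs on listed TPM and 0.0203% after scaling. On listed TPM 2 members (CD59 and CR1) were at an unadjusted p under 0.05, beside 1361 of 9854 IDs. The test over all years at once called 0 of 9 members, against 1.12% of IDs on listed TPM and 0.792% after scaling. On listed TPM its smallest unadjusted p-values among the members were 0.0208 for CD59 and 0.0228 for CR1, with limma adjusted p = 0.154 and 0.160. In that test 2292 of 9854 IDs had an unadjusted p under 0.05.

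The count of members called between 2014 and 2012 on listed TPM changed most without male 2012 replicate 1, the library with the highest globin share of its year. Without it, 5 of 9 members were lower in 2014 by limma: CR1 (-1.24), CD55 (-0.64), CFD (-0.64), C5AR1 (-0.63) and CD46 (-0.58). In that fit 76.3% of all IDs were called, so the members' share is not above that of all IDs. The test over all years then called 5 members and 61.9% of IDs, and between 2014 and 2013 CR1 passed (-0.82, limma adjusted p = 0.0261) along with 6.82% of IDs. Without both libraries over 50% globin, 5 members and 62.7% of IDs were called between 2014 and 2012, and 4 members and 44.2% of IDs over all years. CR1 alone was called without male 2013 replicate 2 (18.5% of IDs), without male 2014 replicate 3 (14.1%), without limma's trend and robust options (10.2%) and in a fit per assembled feature (17.2% of features). Without female 2014 replicate 1, 0 members and 0.183% of IDs were called. After scaling, leaving out male 2012 replicate 1 called 0 members and 8.05% of IDs.

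Between males and females, 0 of 9 members were called, against 0.101% of IDs on listed TPM and 0.162% after scaling. The member with the smallest unadjusted p was CD59, at a lower level in males, -0.75 ± 0.21 (SE; unadjusted p = 9.4e-04, limma adjusted p = 0.545) on listed TPM and -0.84 ± 0.26 (limma adjusted p = 0.900) after scaling. C5AR1 and SERPING1 differed the other way, by 0.38 ± 0.19 and 0.33 ± 0.19 on listed TPM and by 0.27 ± 0.11 and 0.23 ± 0.11 after scaling, with limma adjusted p-values of 0.987 to 1.0. On listed TPM the other 6 members ran from -0.04 to 0.26. With the date of sampling as a block instead of year, which rests on the 7 dates that held both sexes (15 libraries), CD59 differed by -0.63 on listed TPM and -0.64 after scaling, with 0 members and 0.101% of IDs called on listed TPM.

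CD59 was listed in the 2012 females at 14.6, 16.5 and 21.8 TPM and in the 2012 males at 4.88, 2.77, 6.65, 8.61 and 2.64 TPM, so the sexes did not overlap. In 2014 the females were at 15.9 and 20.4 TPM and the males at 6.88, 11.9, 7.92, 9.46, 10.3 and 8.48 TPM, again without overlap. In 2013 the females were at 12.2, 4.94, 6.37 and 4.40 TPM and the males at 9.36, 7.87, 8.37 and 6.51 TPM, within the females' range. The mean log2 difference of males from females in 2013 was 0.26 on listed TPM and 0.19 after scaling. It was thus opposite in sign to 2012 (-1.70 and -1.52) and 2014 (-0.92 and -1.36). Over all years the females averaged 13.0 ± 6.52 TPM (SD, n = 9) and the males 7.51 ± 2.58 TPM (SD, n = 15). CD59 was not alone in this: on listed TPM the sexes of 2014 did not overlap for CD46 and CD55 either, with the females lower. CD46 ran from 96.6 to 119 TPM in these females and from 125 to 193 TPM in the males. CD55 ran from 99.1 to 103 TPM and from 126 to 235 TPM. The exact permutation test gave p = 0.0357 for each on listed TPM, and p = 0.571 and 0.179 after scaling.

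On listed TPM the exact permutation test on log2(TPM + 1), two-sided, gave p = 0.0179 in 2012 and p = 0.0357 in 2014, which are the smallest these group sizes allow, and p = 0.457 in 2013. Adjusted over the 54 exact permutation tests of members, years and scales, the 3 values were 0.386, 0.386 and 0.882. After scaling they were p = 0.0536 in 2012, p = 0.0357 in 2014 and p = 0.629 in 2013 by the same exact permutation test. An interaction of sex and year, tested by limma after these values were seen, had its smallest p of all 9854 IDs at CD59 on listed TPM, with a limma adjusted p of 0.622. After scaling CD59 ranked 26 of 9853 IDs (limma adjusted p = 1.0). The interaction test called 0% of IDs on either scale, with 193 IDs at an unadjusted p under 0.05 on listed TPM and 331 after scaling.

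Globin share averaged 28.5% ± 16.1 in females (SD, n = 9; median 33.9%, range 8.18% to 54.4%) and 24.0% ± 15.3 in males (SD, n = 15; median 22.6%, range 2.72% to 54.3%), and the sexes overlapped. That difference was not tested. The summed scaled neutrophil markers ran from 3731.6 to 6708.3 TPM in females and from 4907 to 11155 TPM in males. With log2 globin share added to the model, the CD59 difference between the sexes was -0.72 on listed TPM. The part of other cells in it was not tested.

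**Figure D3:**
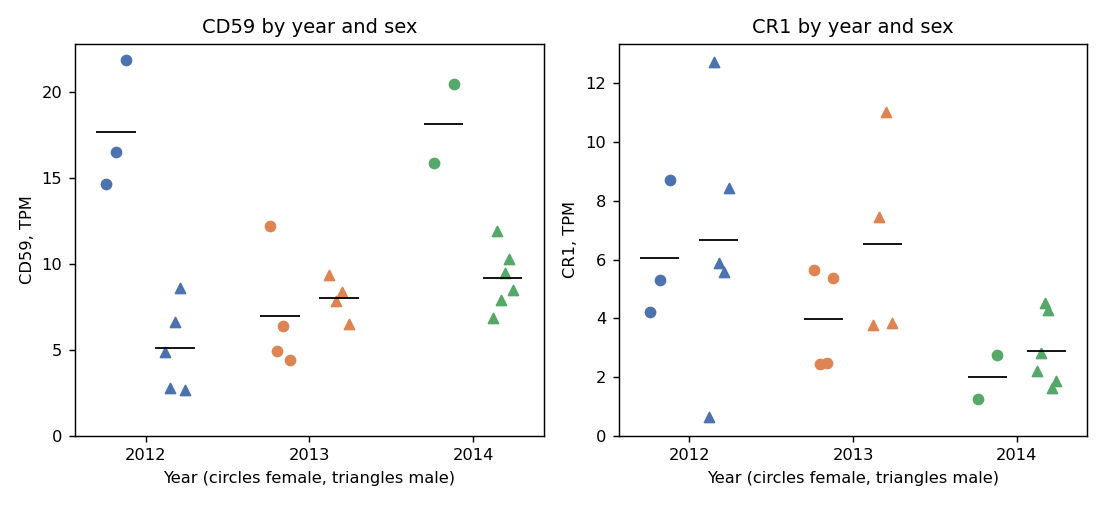
TPM of CD59 and CR1 in each library by year, with females and males marked apart and a line at each mean. CD59 of the females lies above that of the males in 2012 and 2014 and overlaps it in 2013, and the highest CR1 of 2014 is 4.52 TPM.

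The scaled members were then related to the scaled level of 5 neutrophil marker IDs and to globin share over the 24 libraries, 18 relations in all. These relations were computed for the members only, so no share of all IDs stands beside their counts. C5AR1 followed the neutrophil markers most closely (Pearson r = 0.744, adjusted permutation p = 5.4e-04; Spearman rho = 0.686, adjusted permutation p = 0.0063). Without the 2 libraries farthest from the median r was 0.662 (adjusted permutation p = 0.0164), and within the years 2012, 2013 and 2014 it was 0.246, 0.910 and 0.830. CFD had r = 0.655 (adjusted permutation p = 0.0052) with rho = 0.437 (adjusted permutation p = 0.121), and SERPING1 had r = 0.588 (adjusted permutation p = 0.0122) with rho = 0.520 (adjusted permutation p = 0.0460). Without the 2 farthest libraries these were 0.379 and 0.400, with adjusted permutation p = 0.227 for both, so neither passed. Leaving those libraries out also narrows the range of the markers, and whether the relations rested on them was not tested. For CFD the values within the years 2012, 2013 and 2014 were 0.149, 0.600 and 0.791, and for SERPING1 they were 0.252, 0.559 and 0.663. CD55 passed on ranks (rho = 0.591, adjusted permutation p = 0.0262) but not on values (r = 0.346, adjusted permutation p = 0.286), with r = 0.430 without the 2 farthest libraries and 0.213, 0.603 and 0.378 within the years.

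CD59 was the only member whose relation to globin share passed after scaling, and it was positive (r = 0.616, adjusted permutation p = 0.0083; rho = 0.529, adjusted permutation p = 0.0460). Without the 2 farthest libraries r was 0.481 (adjusted permutation p = 0.209), and within the years it was 0.564, 0.500 and 0.791. On listed TPM r was 0.299, not past the threshold. C3AR1 had the next highest r with globin share after scaling, 0.379 (adjusted permutation p = 0.2465), and 0.372, 0.318 and 0.376 within the years. No member passed the adjusted threshold against globin share or the neutrophil markers within a single year of 8 libraries.

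**Figure D4:**
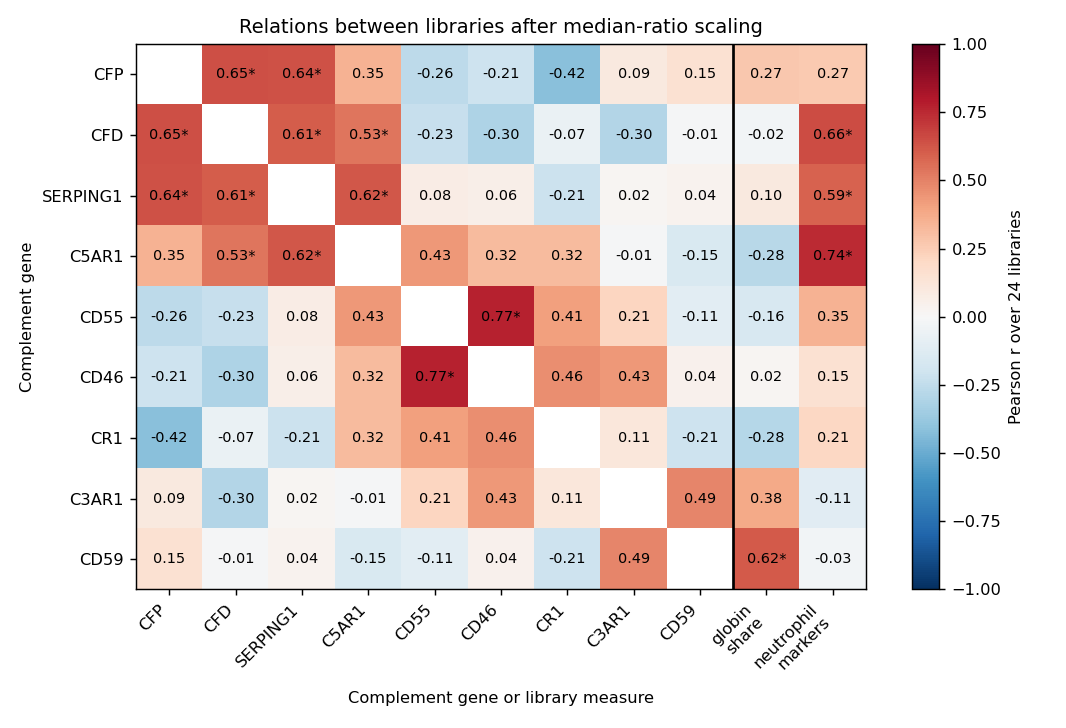
Pearson r of each scaled member with the other members, with globin share and with the neutrophil markers over 24 libraries, coloured from -1 to 1, where an asterisk marks an adjusted permutation p under 0.05. C5AR1, CFD and SERPING1 are marked for the neutrophil markers and CD59 for globin share, and 6 pairs of members are marked, all positive.

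Among the 36 pairs of members, which were examined after the other values were seen, 23 had a positive r on scaled values and 6 passed the adjusted threshold, all of them positive. Pairs of other IDs were not computed, so whether 6 of 36 is more than other IDs would show is not known. The closest pair was CD46 and CD55, both regulators of the convertases (r = 0.767, adjusted permutation p = 3.6e-04, from the smallest p that 100000 permutations can give; rho = 0.742, adjusted permutation p = 0.0025). Their r was 0.631 without the 2 farthest libraries (adjusted permutation p = 0.0247) and 0.935, 0.728 and 0.591 within the years. The ratio of CD55 to CD46 stayed between 0.836 and 1.34 in all libraries, with a median of 1.08.

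CFP, CFD, SERPING1 and C5AR1 made up the other 5 pairs. CFP had r = 0.646 with CFD (adjusted permutation p = 0.0089; rho = 0.641, adjusted permutation p = 0.0112) and r = 0.636 with SERPING1 (adjusted permutation p = 0.0089; rho = 0.642, adjusted permutation p = 0.0112). C5AR1 had r = 0.621 with SERPING1 (adjusted permutation p = 0.0102; rho = 0.612, adjusted permutation p = 0.0172). Without the 2 farthest libraries these were 0.579, 0.606 and 0.605. For CFP with CFD, r within 2012, 2013 and 2014 was 0.729, 0.844 and 0.617, for CFP with SERPING1 0.585, 0.589 and 0.667, and for C5AR1 with SERPING1 0.226, 0.659 and 0.834. CFD with SERPING1 (r = 0.607, adjusted permutation p = 0.0125) and CFD with C5AR1 (r = 0.534, adjusted permutation p = 0.0406) did not pass on ranks (rho = 0.496 and 0.370, adjusted permutation p = 0.0678 and 0.232). Without the 2 farthest libraries they were 0.416 and 0.330 (adjusted permutation p = 0.240 and 0.440) and did not pass. Within 2012, 2013 and 2014 they were 0.031, 0.546 and 0.927 for SERPING1 and -0.293, 0.600 and 0.841 for C5AR1. The lowest r of any pair was -0.421, between CFP and CR1 (adjusted permutation p = 0.131; rho = -0.411, adjusted permutation p = 0.187). Without the 2 farthest libraries it was -0.633 (adjusted permutation p = 0.0247), so that 5 pairs then passed and this one was negative, and within the years it was -0.860, 0.126 and -0.489.

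**Figure D5:**
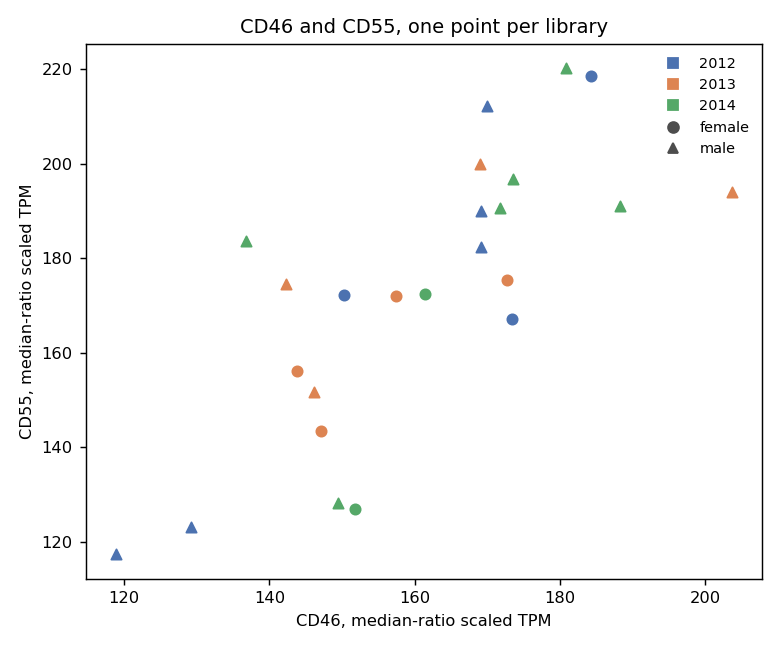
Scaled TPM of CD55 against CD46, with each library as a point coloured by year, circles for females and triangles for males. The points rise together, with r = 0.767 over 24 libraries.

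Of 38 other complement IDs, a fixed selection of further components, receptors and regulators that is not complete, 15 were listed, with mean levels of 1.36 to 520 TPM and a median of 37.8 TPM. Between 2014 and 2012, 1 of the 15 was called by limma on listed TPM, where 11.3% of all IDs were, on the feature TR2858|c0_g2, with a difference of -0.72 ± 0.22 (SE; limma adjusted p = 0.0325). Its lowest, median and highest values were 3.64, 10.5 and 13.9 TPM in 2012 and 3.22, 5.19 and 10.3 TPM in 2014, so the years overlapped. After scaling its difference was -0.36 ± 0.20 (limma adjusted p = 0.291), and 0 of the 15 were called against 3.62% of all IDs, with a smallest limma adjusted p of 0.0541. The median difference of the 15 was -0.19 on listed TPM and 0.21 after scaling. None of the 15 was called by limma in the other comparisons of years or between the sexes, on either scale.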

How the data were processed

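The authors deposited 1 table of TPM values per assembled feature and library, with Entrez Gene IDs. Per the series' design text, reads were measured on a transcriptome assembled de novo with Trinity, and the submitters' processing notes name Trimmomatic, Bowtie2 and RSEM 1.2.21 without role or order. RNA came from a PAXgene blood kit and strand-directional NEBNext libraries, per the labels' protocols. The sources used here do not say how low features were filtered, and 0 other per-sample columns were present.

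TPM was summed per ID, and 1 ID cell that holds a date was not used. All 9 listed members passed the filter of 1 TPM in at least 8 libraries. limma 3.58.1 (R 4.3.3, trend and robust) was fitted to log2(TPM + 1), which understates changes of low genes, with sex and year in the model, and was tested on simulated data. Calls needed a Benjamini-Hochberg adjusted p under 0.05. Median-ratio scaling used 9783 IDs above 0 in every library. Relations used 100000 permutations (scipy 1.17.1). Library pairs had a Spearman correlation of 0.918 to 0.987, and none was treated as a copy.

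Values per library are given for members that passed a test or else for the 3 with the smallest p in the test over all years (CD59, CR1 and CFD). Members and lists were chosen with earlier results of these data known, and symbols and marker lists were paired with IDs from the rule and general knowledge, since the table gives IDs only. Alternatives were other pseudocounts, filters, scalings and model terms, and each library left out.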

Additional observations from a re-analysis of the deposited data

Results flagged for a closer look

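CD46 in male 2012 replicate 1 was listed at 63.6 TPM, while the other 7 libraries of 2012 ran from 167 to 245 TPM. Its gap to the nearest library was 0.568 of the range of that year, past the limit for 8 values. Of 36 groups of libraries looked at, this was the only one past its limit, where chance gives about 1 in 20. This library also held 54.3% of its TPM in the globin IDs, and after scaling its CD46 was 119 TPM, the lowest of all libraries.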

How the results depend on the processing

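The count of members called between 2014 and 2012 moved from 0 to 1 without limma's trend and robust options or with a fit per assembled feature (CR1 in both, -0.92), and to 5 without the 2 libraries over 50% globin, beside the shares of all IDs given above. Leaving out single libraries gave 0 to 5, with 5 without male 2012 replicate 1, and 1 (CR1) without male 2013 replicate 2 or male 2014 replicate 3. The test over all years moved to 4 without those 2 libraries and ran from 0 to 5 over single libraries left out. The count between 2014 and 2013 ran from 0 to 1, and with scaling and day of the year, chosen after seeing the data, it was 1 (CD59, 1.12). With day of the year CR1 was -0.19 and CD59 0.27 between 2014 and 2012. That difference turned sign with median-ratio scaling for CFP (0.21), CD46 (0.064), CD55 (0.026), C5AR1 (0.017), C3AR1 (0.24) and SERPING1 (0.22). With globin IDs left out it turned for CFP (0.14), C3AR1 (0.20) and SERPING1 (0.16). With day of the year it turned for CD46 (0.32), CD55 (0.32), C5AR1 (0.27), C3AR1 (0.25) and SERPING1 (0.13). With log2 globin share it turned for CFP (0.17), CD46 (0.17), CD55 (0.19), C5AR1 (0.22), C3AR1 (0.090) and SERPING1 (0.31), and in males alone for SERPING1 (0.043). The median difference of all IDs moved too, from -0.38 to -0.0045 with scaling and to -0.066 with globin IDs left out. That median was 0.16 with day of the year and 0.066 with log2 globin share, 2 fits in which 0 of 9854 IDs were called. Over single libraries left out, C3AR1 ran from -0.21 to 0.034 and scaled CFD from -0.21 to 0.0086. In alternatives chosen after seeing the data, scaled CFD was 0.072 without the 2 globin-rich libraries and -0.47 with day of the year. The other complement ID called lower in 2014 (TR2858|c0_g2) kept its direction in 35 alternatives and its call in 19, from -0.92 to -0.25. The difference of CD59 between the sexes stayed below 0 in all 34 alternatives, from -0.88 to -0.62, with 0 calls. Each of these fits pooled the years, and within 2013 alone the difference was above 0 on both scales (0.26 and 0.19). Members related to globin share went from 1 (CD59, positive) to 7 on listed TPM, to 0 without the 2 farthest libraries and to 0 within each year. The 7 were CFP, CFD, CR1, CD46, CD55, C5AR1 and SERPING1, all negative (r from -0.79 to -0.58), and CD59 was not among them. Members related to the neutrophil markers went from 3 to 1 without the 2 farthest libraries and to 0 within each year. Related pairs went from 6 to 21 on listed TPM. Neither relations nor pairs were computed for the other IDs, so whether these counts differ from those of other IDs is not known. The cause of the changes in these counts was not tested. With sampling date as a block in the comparison of the sexes, 0 members were called and CD59 was -0.63. The unknown depth limits CR1, CD59 and C3AR1, the lowest members.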
